A study of Mus musculus with 12 samples.

Results

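Fgf6 and 9 other genes of the fibroblast growth factor (FGF) system were followed across mouse hearts that did or did not lack 2 corticosteroid receptors in their cardiomyocytes. The set holds the ligands Fgf6, Fgf1, Fgf2, Fgf9 and Fgf16, the intracellular members Fgf12 and Fgf13, and the receptors Fgfr1, Fgfr2 and Fgfr4. Its members were found by the gene name, or an older synonym of it, that the array files give each probe. They make up 10 of the 27669 genes on the array and 24 of its 41174 probes. The members were chosen by detection and signal levels over the 4 groups of these same arrays, with Fgf6 selected on its difference between the genotypes, so the values of Fgf6 are given as a description with no test. The other members were tested.

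In the cardioGRMRdKO hearts, the cardiomyocyte promoter αMHC drives Cre recombinase, which acts on floxed alleles of Nr3c1 (glucocorticoid receptor) and Nr3c2 (mineralocorticoid receptor). The dflox hearts came from littermates with the same floxed alleles and no Cre. All mice were C57BL/6 males, killed at 1 or 2 months of age, and each of the 4 groups held 3 whole hearts with 1 array per heart. Cre was present in the cardioGRMRdKO groups alone, so its own effects and those of receptor loss cannot be told apart, and cells other than cardiomyocytes keep both receptors.

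FGFs are a family of signalling proteins. The secreted ones bind receptor tyrosine kinases (the FGF receptors) together with heparan sulfate chains on the cell surface, and the receptors pass the signal through adaptor proteins to the MAP kinase and phosphoinositide 3-kinase pathways. Fgf12 and Fgf13 belong to a branch that stays inside the cell and binds voltage-gated sodium channels. Fgf6 is known as a ligand of skeletal muscle and its precursor cells, whereas Fgf9 and Fgf16 are known for roles in heart development and growth.

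All levels below are log2 signals relative to the array's 75th percentile, so 0 is that percentile and 1 unit is a doubling. Levels of different probes are not set against each other, because probes differ in how strongly they bind. A probe was called detected on an array where the scanner software found it well above background. Across the arrays, 63.7% to 71.9% of transcript spots were detected. Nr3c1 stood at 1.15 to 1.51 in the 5 cardioGRMRdKO hearts with a usable spot and at 2.05 to 2.51 in the 5 such dflox hearts, and these ranges did not overlap. At 1 month 2 hearts per genotype had a usable spot, and the difference did not reach an adjusted p under 0.05 by limma. At 2 months it did. The Nr3c2 probe ran from -4.48 to -2.91 in cardioGRMRdKO hearts and from -4.49 to -2.64 in dflox hearts, which overlap. It followed the array slide, with -3.03 to -2.64 on slide 3 and -4.49 to -3.43 on the other slides. Its overlap therefore says little about the loss of this receptor. The mean of 16 cardiomyocyte markers lay between 5.67 and 6.34 in every heart. Epithelial markers of the airway, which a dissected heart can carry along with attached tissue, varied far more. The mean of 16 such genes was -4.45 to -2.99 in cardioGRMRdKO hearts and -0.04 to 1.19 in dflox hearts at 1 month, and at 2 months -4.45 to 1.13 in cardioGRMRdKO hearts and -4.37 to 1.50 in dflox hearts. All 16 were lower in cardioGRMRdKO hearts at 1 month, with a median difference of -4.97. Arrays lay on 3 slides of 4 places. Among the 1-month arrays the cardioGRMRdKO ones all had inner places and the dflox ones outer places, so that the effects of place and of genotype cannot be told apart there.

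Of the 24 member probes, 20 passed the filter, which asks for detection on all 3 arrays of at least 1 group. They cover 9 of the 10 members, and Fgf2 is the one without a passing probe. Fgf6 passed through the cardioGRMRdKO groups, where it is high, while the brightest probes of the other 8 members were detected on all 12 arrays. The probes that the main results turn on are given as printed on the array, each 60 bases long, 5′ to 3′. The Fgf6 sequence is that of the dimmer Fgf6 probe, on chr6:127040970-127041029 (plus strand, mm7). The Fgf16 sequence stands for the member with the lowest adjusted p. The Fgf2 sequences belong to the member that was hardly detected.
Fgf6 probe A_52_P155536: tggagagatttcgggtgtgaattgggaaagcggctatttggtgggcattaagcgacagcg
Fgf16 probe A_51_P443740: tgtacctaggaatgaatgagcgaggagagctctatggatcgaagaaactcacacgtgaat
Fgf2 probe A_51_P399845: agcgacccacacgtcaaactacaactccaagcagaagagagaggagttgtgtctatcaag
Fgf2 probe A_52_P376768: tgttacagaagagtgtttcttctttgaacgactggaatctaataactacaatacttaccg

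Fgf6 was detected by its brighter probe in all 6 cardioGRMRdKO hearts and in 1 of the 6 dflox hearts. On that probe, A_51_P351039 at chr6:127052748-127052807 (plus strand, mm7), the log2 levels at 1 month were -4.12, -4.04 and -4.29 in cardioGRMRdKO hearts and -7.61, -7.43 and -6.47 in dflox hearts. At 2 months they were -3.31, -3.29 and -2.87 in cardioGRMRdKO hearts, against -5.87, -6.33 and -6.02 in dflox hearts. Every cardioGRMRdKO heart lay above every dflox heart at both ages, and the one dflox heart in which the probe was detected was replicate 3 at 2 months.

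The difference between the measured means was 3.02 (SE 0.27) on the log2 scale at 1 month and 2.92 (SE 0.27) at 2 months. The dflox signals at 1 month were all too weak to count as detected, and at 2 months those of 2 of the 3 dflox hearts were, so neither difference is a measured fold. Set against the lowest signal that the software accepted for any probe, the cardioGRMRdKO level at 1 month was 3.14-fold higher. That signal is not a detection limit for this probe, so the value is no lower bound of the fold. Within single slides that held both genotypes, the difference was 3.57 and 2.66 at 1 month and 3.00 and 2.89 at 2 months.

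In cardioGRMRdKO mice, where all hearts were detected, Fgf6 was also higher at 2 months than at 1 month, by 1.00 (SE 0.27) and with no overlap. The groups ran, from high to low, cardioGRMRdKO at 2 months, cardioGRMRdKO at 1 month and then the dflox groups. The dflox groups have no order, because 5 of their 6 hearts were not well above background and the probes disagree in sign on their age difference.

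The dimmer Fgf6 probe, whose sequence is shown above, gave the same order of genotypes. Its levels at 1 month were -5.52, -5.43 and -5.70 in cardioGRMRdKO hearts and -7.34, -7.39 and -6.47 in dflox hearts, with detection in 1 of 3 cardioGRMRdKO hearts and 0 of 3 dflox hearts. At 2 months they were -4.38, -4.35 and -4.89 in cardioGRMRdKO hearts, all detected, and -6.35, -7.26 and -8.01 in dflox hearts, none detected. Set against the lowest accepted signal, the cardioGRMRdKO level on this probe was 2.58-fold higher at 2 months, which is again no lower bound. No fold is given at 1 month, where only 1 of the 6 hearts was detected. The starts of the probes lie 11778 bases apart on mm7, while the RefSeq gene model of Fgf6 on GRCm38.p6 is 9177 bases long. If that distance held on GRCm38.p6, the 2 probes could not both lie within this model. The brighter probe, which gives the main Fgf6 values, is the downstream one. Exon annotation of mm7 was not used here, and the place of the probes on GRCm38.p6 was not tested.

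**Figure D1:**
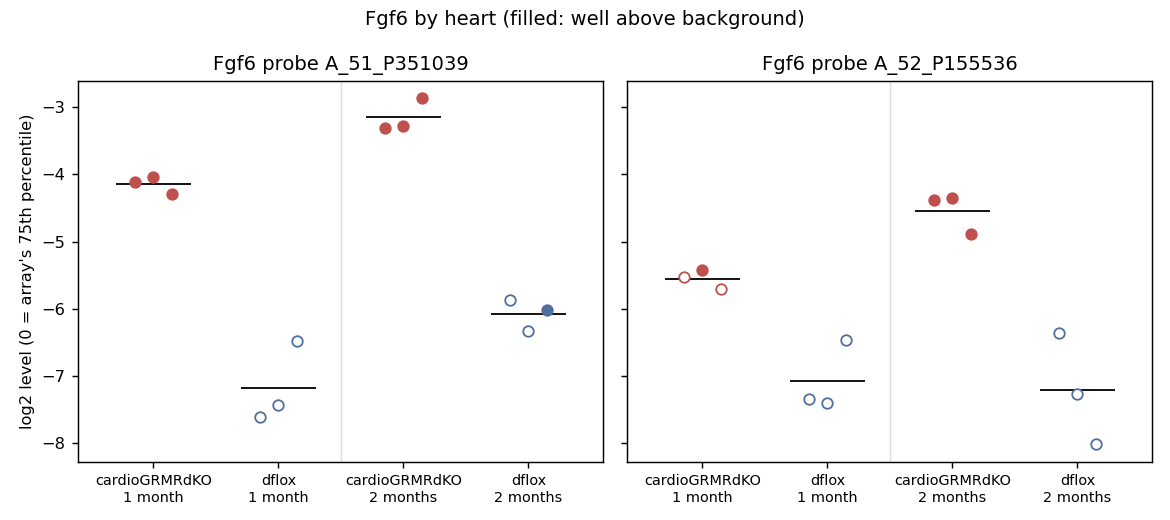
Log2 level (y axis, 0 is the array's 75th percentile) of the 2 Fgf6 probes in each heart, by group (x axis). Points are hearts, filled where the probe was well above background, and bars are means of 3 hearts. On both probes all cardioGRMRdKO hearts sit above all dflox hearts of the same age.

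Signs of other tissue were set beside Fgf6. Genes of skeletal muscle and its precursors had a mean level of -0.90 to -0.64 in cardioGRMRdKO hearts and -0.94 to -0.63 in dflox hearts at 1 month, so the groups overlapped. At 2 months the ranges were -0.57 to -0.28 in cardioGRMRdKO hearts and -0.87 to -0.30 in dflox hearts. Macrophage markers separated the genotypes at both ages, with means over 14 genes of 1.72 to 1.77 in cardioGRMRdKO hearts and 1.19 to 1.65 in dflox hearts at 1 month, and of 1.49 to 1.73 in cardioGRMRdKO hearts and 1.37 to 1.41 in dflox hearts at 2 months. At each age 13 of these 14 genes had a difference above 0, with medians of 0.22 and 0.23, beside 0.00 and -0.10 over all genes. At each age 0 of the 14 were called, where 0.98% (1 month) and 2.31% (2 months) of all genes were. Endothelial markers separated the other way, with means over 12 genes of 2.87 to 2.89 in cardioGRMRdKO hearts and 2.94 to 3.05 in dflox hearts at 1 month, and of 2.76 to 2.78 in cardioGRMRdKO hearts and 2.81 to 3.05 in dflox hearts at 2 months. Of these 12 genes 0 were called at each age. At 1 month the fibroblast, cartilage, atrial and cardiomyocyte marker means were also lower in every cardioGRMRdKO heart than in every dflox heart, and at 2 months each of these 4 overlapped. No gene of these 4 lists was called at either age. The fibroblast means at 1 month were 3.85 to 3.95 in cardioGRMRdKO hearts and 4.03 to 4.22 in dflox hearts, and the atrial means 2.42 to 3.48 in cardioGRMRdKO hearts and 3.50 to 3.56 in dflox hearts. The part of these cell types in the Fgf6 difference was not tested. The airway markers were low in all cardioGRMRdKO hearts at 1 month, and at 2 months both genotypes held hearts with high and hearts with low levels. In 1 pair of hearts, those numbered 2 at 2 months, airway levels were -4.45 (cardioGRMRdKO) and -4.37 (dflox). The Fgf6 levels of this single pair were -3.29 and -6.33. With the airway marker mean as a covariate, an alternative added after its levels had been seen, the Fgf6 differences were 3.25 at 1 month and 2.86 at 2 months. The airway means of the genotypes did not overlap at 1 month, so this covariate and genotype cannot be told apart there. The part of attached tissue in the Fgf6 difference was not tested. In whole hearts, a change in the number of cells that make an RNA and a change of its amount per cell cannot be told apart.

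The Fgf6 difference depended on how weak signals were treated. With background modelled from the raw mean signals (normexp with an offset of 50), it was 0.41 at 1 month and 0.75 at 2 months, in the same direction.

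Among the other members, none passed the test in any comparison. At 1 month 0 of 8 tested members were called at an adjusted p under 0.05 (limma with Benjamini-Hochberg adjustment over all 18258 genes tested), where 0.98% of all genes were, and at 2 months 0 of 8, where 2.31% were. Averaged over both ages it was 0 of 8 against 4.5% of genes. For the change of the genotype difference with age it was 0 of 8 against 0% of genes, with 644 genes and 1 member at an unadjusted p under 0.05. Between the ages, 0 of 8 were called in cardioGRMRdKO hearts and 0 of 8 in dflox hearts, against 0.378% and 0.553% of genes. Before adjustment, 3 members reached a p under 0.05 at 1 month, 1 at 2 months, 2 in the averaged comparison, 0 between the ages in cardioGRMRdKO hearts and 2 in dflox hearts. With 3 hearts against 3, an exact permutation test of a single gene cannot give a p under 0.1.

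The median difference of the 8 members was 0.12 at 1 month and 0.03 at 2 months, beside 0.00 and -0.10 over all genes tested. As a plain description, 4 of the 8 had groups that did not overlap at 1 month, namely Fgf9 and Fgf13 with cardioGRMRdKO above and Fgfr1 and Fgfr2 with cardioGRMRdKO below. Over all genes with full values this held for 18.6%. At 2 months it was 1 of 8, Fgf16, against 17.6% of genes.

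**Figure D2:**
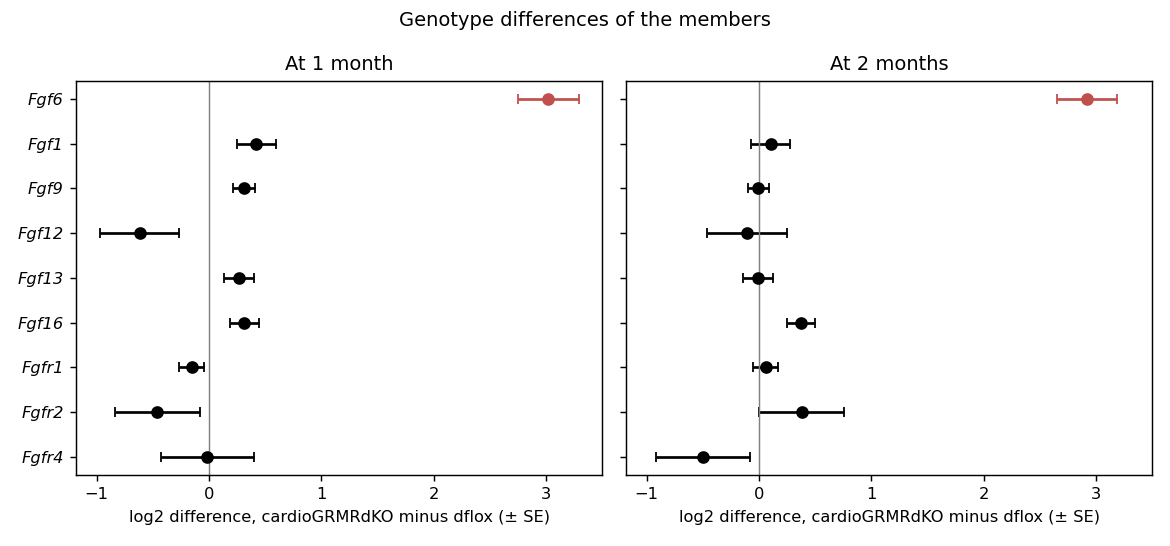
Log2 difference, cardioGRMRdKO minus dflox (x axis, with SE from limma), of the brightest probe of each detected member (y axis) at 1 month (left) and 2 months (right). Fgf6 (red) lies near 3 at both ages, and the other 8 members lie between -0.62 and 0.42.

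Fgf16, a secreted ligand of the same subfamily as Fgf9, was the member with the lowest adjusted p in any of the 6 comparisons. Its levels at 2 months were -0.94, -0.89 and -0.91 in cardioGRMRdKO hearts and -1.25, -1.30 and -1.31 in dflox hearts. The groups did not overlap and each was tight. At 1 month the levels were -0.95, -1.21 and -1.20 in cardioGRMRdKO hearts and -1.20, -1.42 and -1.69 in dflox hearts, which overlap. Averaged over both ages the difference was 0.34 (SE 0.09, 95% interval 0.14 to 0.54), a 1.27-fold difference with an adjusted p of 0.0647 by limma. Without dflox replicate 1 of the 1-month group it was 0.40 with an adjusted p of 0.034, and over all settings run the adjusted p reached up to 0.51.

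Fgf9, a secreted ligand known from cardiomyocyte proliferation in the embryo, showed its difference at 1 month. The levels were -0.46, -0.35 and -0.35 in cardioGRMRdKO hearts, against -0.73, -0.64 and -0.72 in dflox hearts, so every cardioGRMRdKO heart was higher. The difference was 0.31 (SE 0.10, 95% interval 0.10 to 0.52) with an adjusted p of 0.244 by limma. At 2 months the levels were -0.22, -0.43 and -0.36 in cardioGRMRdKO hearts and -0.22, -0.39 and -0.38 in dflox hearts, and their difference was -0.01 (95% interval -0.22 to 0.21). In dflox hearts Fgf9 was higher at 2 months than at 1 month by 0.37 (SE 0.10), with an adjusted p of 0.117, and in cardioGRMRdKO hearts by 0.05 (SE 0.10). The change of the genotype difference with age was -0.32 (SE 0.14) and had an adjusted p of 0.934. When arrays were weighted by their quality, the adjusted p at 1 month was 0.0315, and over all settings run it reached up to 0.985.

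Fgf1, the acidic FGF that binds all FGF receptors, was measured by a bright and a dim probe. On the bright one the levels at 1 month were 1.19, 0.86 and 0.99 in cardioGRMRdKO hearts and 0.44, 0.38 and 0.96 in dflox hearts. A single dflox heart, replicate 3, reached into the cardioGRMRdKO range. The difference was 0.42 (SE 0.17, 95% interval 0.04 to 0.81) with an adjusted p of 0.459 by limma. At 2 months the levels were 1.09, 1.48 and 1.20 in cardioGRMRdKO hearts and 1.14, 1.02 and 1.30 in dflox hearts, and their difference was 0.10 (95% interval -0.28 to 0.49). In dflox hearts Fgf1 was higher at 2 months than at 1 month by 0.56 (SE 0.17) with an adjusted p of 0.184. The dim probe differed by -0.03 at 1 month, so the probes disagree in sign there.

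Fgf2, the basic FGF, which is made by many cell types of the heart and acts on cardiomyocytes and fibroblasts, was near background on both of its probes. Each was detected on 3 of the 12 arrays, so its levels are given with no fold and no test. On A_51_P399845, which is printed at 10 spots per array, they were -6.71, -7.64 and -7.03 in cardioGRMRdKO hearts and -6.36, -6.40 and -5.82 in dflox hearts at 1 month. At 2 months they were -6.69, -6.87 and -6.30 in cardioGRMRdKO hearts and -5.71, -6.21 and -5.73 in dflox hearts. Every cardioGRMRdKO heart read lower than every dflox heart of its age on this probe. On A_52_P376768 the levels were -7.82, -6.34 and -7.52 in cardioGRMRdKO hearts and -6.18, -5.75 and -5.14 in dflox hearts at 1 month, with no overlap. At 2 months they were -6.03, -7.30 and -6.24 in cardioGRMRdKO hearts and -5.25, -5.47 and -6.12 in dflox hearts, where the groups overlapped.

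The intracellular FGFs bind the tails of voltage-gated sodium channels. Fgf13, the main intracellular FGF of the mouse heart, had levels of 1.35, 1.36 and 1.32 in cardioGRMRdKO hearts at 1 month, against 1.07, 0.87 and 1.29 in dflox hearts. All cardioGRMRdKO hearts were higher, the nearest by a small margin. The difference was 0.27 (SE 0.13, 95% interval -0.03 to 0.56) with an adjusted p of 0.628 by limma, and at 2 months it was -0.01 (95% interval -0.31 to 0.28). The other Fgf13 probes differed by -0.01 and 0.20 at 1 month.

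Fgf12, the main intracellular FGF of the human heart, varied widely between hearts of one group. The levels at 1 month were -0.18, 1.16 and 0.87 in cardioGRMRdKO hearts and 1.30, 1.41 and 0.99 in dflox hearts. Those at 2 months were 1.01, 0.88 and 0.39 in cardioGRMRdKO hearts and 0.69, 0.48 and 1.45 in dflox hearts. The difference at 1 month was -0.62 (SE 0.35, 95% interval -1.40 to 0.17) with an adjusted p of 0.718 by limma. It was -0.22 without replicate 1 of the cardioGRMRdKO group, which was the lowest of all 12 hearts both on the brightest probe and on A_52_P172131.

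That heart also had the lowest mean of 12 atrial markers, 2.42, where the other hearts had 2.67 to 3.70. The heart next lowest in atrial markers, replicate 3 of the cardioGRMRdKO group at 2 months, had an Fgf12 level of 0.39. The next lowest Fgf12 levels, 0.48 and 0.69, were in dflox replicates 2 and 1 at 2 months. Their atrial means were 3.27 and 3.61, within the range of the other hearts. The part of atrial tissue in the Fgf12 values was not tested. One Fgf12 probe, A_52_P193161, is placed by the file at chr16:27849607-28032946 (minus strand, mm7), a span of 183340 bases for a 60-base probe, so its bases lie in separate stretches of the genome. It read -1.97 in that same heart and -0.65 and -0.87 in the other cardioGRMRdKO hearts at 1 month, against -1.28, -1.07 and -0.84 in dflox hearts. At 2 months it read -1.04, -0.93 and -0.63 in cardioGRMRdKO hearts and -1.29, -2.02 and -1.37 in dflox hearts, so that every cardioGRMRdKO heart was higher, by 0.69 on average. The brightest probe differed by -0.11 there, so the Fgf12 probes disagree in sign at 2 months. The sequence of the spanning probe is shown for that reason.
Fgf12 probe A_52_P193161: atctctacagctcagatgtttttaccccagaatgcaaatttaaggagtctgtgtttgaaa

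**Figure D3:**
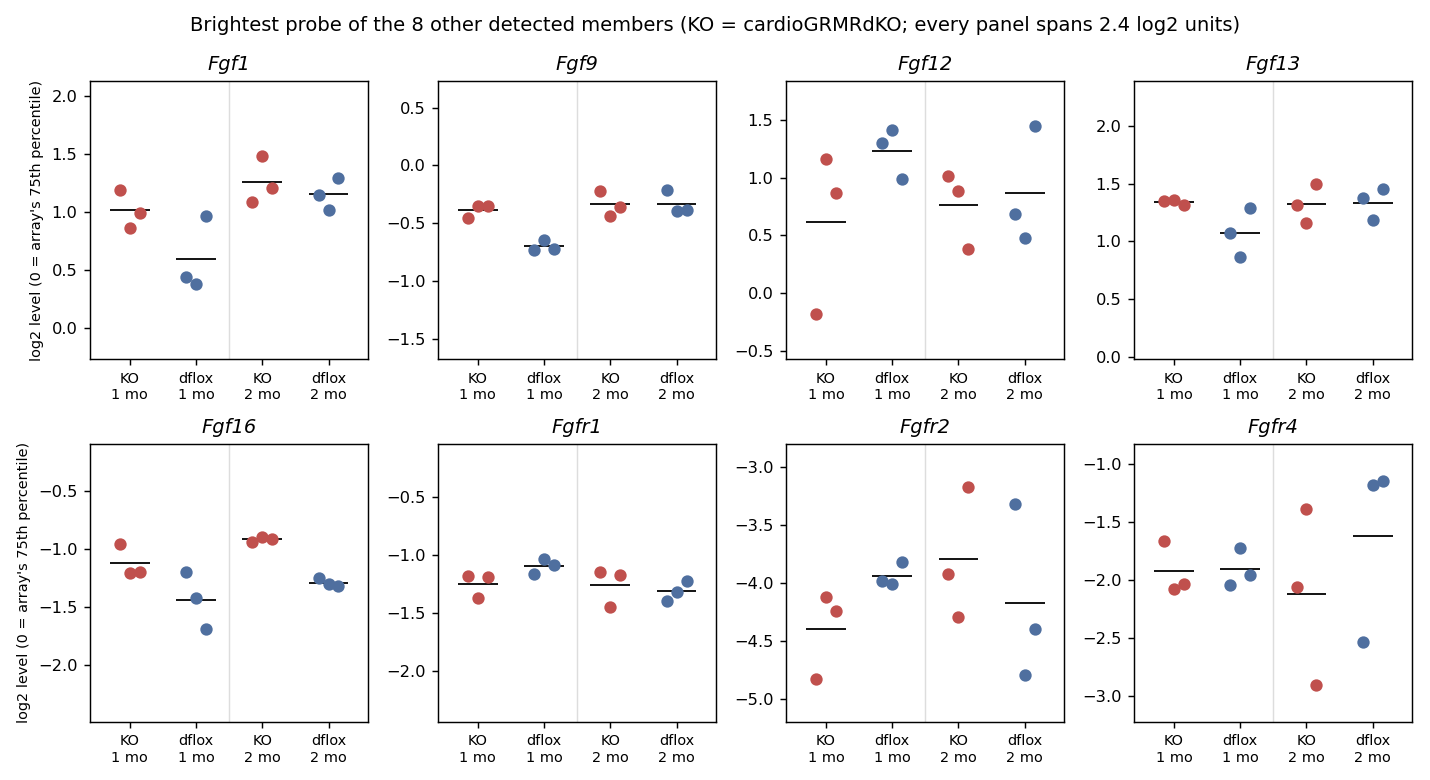
Log2 level (y axis, 0 is the array's 75th percentile) of the brightest probe of the 8 other detected members in each heart, by group (x axis; KO stands for cardioGRMRdKO). Points are hearts and bars are means of 3. Fgf16 separates by genotype at 2 months. At 1 month Fgf9 and Fgf13 separate with cardioGRMRdKO above, and Fgfr1 and Fgfr2 with cardioGRMRdKO below. Fgfr4 and Fgfr2 at 2 months spread widely within both genotypes.

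The receptors are tyrosine kinases that differ in which ligands they prefer. Fgfr1, the main FGF receptor of the heart, had 4 probes, all detected in every heart. On the brightest the levels at 1 month were -1.18, -1.37 and -1.19 in cardioGRMRdKO hearts and -1.16, -1.03 and -1.08 in dflox hearts. The groups did not overlap, but the nearest hearts lay close together. The difference was -0.15 (SE 0.11, 95% interval -0.40 to 0.09) with an adjusted p of 0.852 by limma, and at 2 months it was 0.06 (95% interval -0.19 to 0.30). The other 3 probes differed by -0.24, -0.32 and -0.14 at 1 month, in the same direction. The 2 brightest Fgfr1 probes overlap, at chr8:24330044-24330103 and chr8:24330065-24330124 (plus strand, mm7). They share 39 positions and differ at 1 of them, A57G, counted from the 5′ end of A_51_P109469. They are shown with that base in capitals.
Fgfr1 probe A_51_P109469: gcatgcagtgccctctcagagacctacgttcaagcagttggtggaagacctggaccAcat
Fgfr1 probe A_52_P668810: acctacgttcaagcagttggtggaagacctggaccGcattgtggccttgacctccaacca

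These overlapping probes are 2 readings of 1 stretch of the transcript and not separate evidence. At 1 month the difference was -0.24 on the first and -0.15 on the second.

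Fgfr4, a receptor best known from liver and from muscle repair, differed by slide. On its brightest probe the 4 arrays of slide 3 read -1.67 to -1.14, those of slide 2 read -2.06 to -1.73 and those of slide 1 read -2.90 to -2.04. Slide 3 stood above the other slides on 2 of the 3 Fgfr4 probes, and on the third, A_52_P686383, it overlapped slide 2. The genotype difference was -0.02 (SE 0.42) at 1 month and -0.50 (SE 0.42, 95% interval -1.42 to 0.42) at 2 months, with adjusted p of 1.0 and 0.561 by limma. Slide 3 holds 1 of the 3 cardioGRMRdKO hearts and 2 of the 3 dflox hearts at 2 months. With the slide as a block the difference at 2 months was -0.27.

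Fgfr2, which binds ligands of epithelium and connective tissue, went the other way. Its brightest probe read -4.82 to -4.29 on slide 3, below -4.24 to -3.82 on slide 2 and -4.12 to -3.17 on slide 1. The genotype differences were -0.46 (SE 0.38) at 1 month and 0.38 (SE 0.38) at 2 months, with adjusted p of 0.911 and 0.622 by limma. In the fit with slide terms, these were the 2 members called for a slide effect, at adjusted p of 0.0169 for Fgfr4 and 0.0192 for Fgfr2, where 8.53% of genes were called. The median of 956 probes for olfactory receptors, which the heart is not known for, read -6.18 to -5.70 on slide 3 and -7.41 to -6.94 on the other slides. Those probes were looked up after the slide pattern had been seen, and what makes slide 3 differ was not tested.

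**Figure D4:**
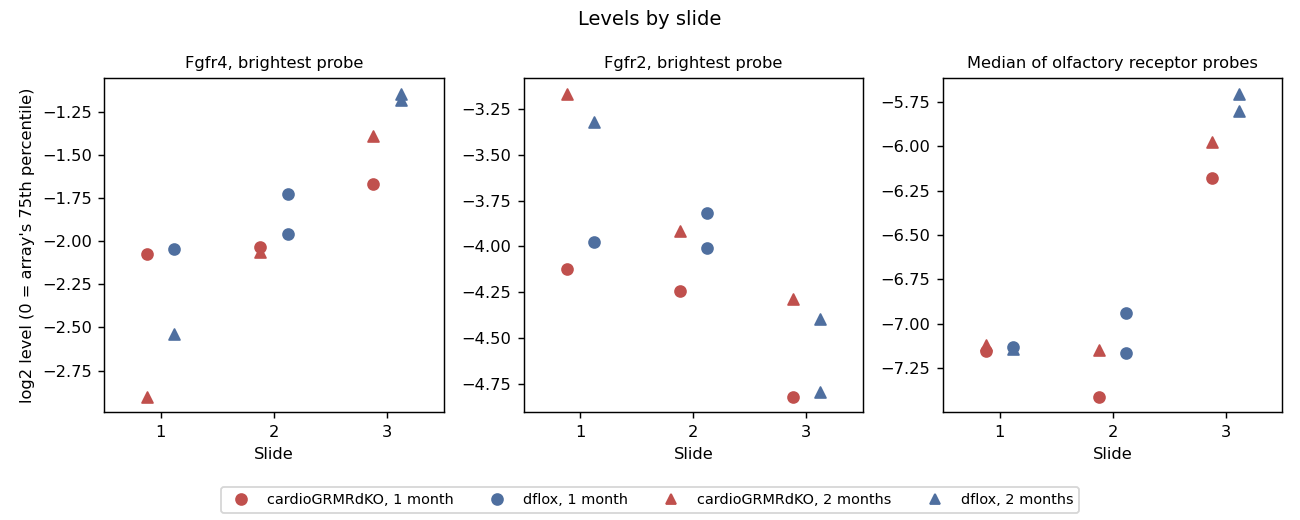
Log2 level (y axis, 0 is the array's 75th percentile) by slide (x axis) of the brightest Fgfr4 and Fgfr2 probes and of the median olfactory receptor probe. Each point is 1 array, coloured by genotype and shaped by age. On slide 3 Fgfr4 and the olfactory receptor median are highest and Fgfr2 is lowest in all 4 arrays.

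A dim Fgfr2 probe, A_52_P158800, ran differently from the bright one. It read -6.58, -5.50 and -7.16 in cardioGRMRdKO hearts and -7.81, -7.78 and -7.20 in dflox hearts at 1 month. At 2 months it read -6.48, -6.09 and -6.14 in cardioGRMRdKO hearts and -8.27, -7.92 and -7.00 in dflox hearts. All cardioGRMRdKO hearts were higher, yet the probe was detected in 2 of 6 cardioGRMRdKO hearts and 0 of 6 dflox hearts and did not pass the filter, so no fold is given.

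The tested genes of the rest of the FGF family gave no call, which for so few genes is near the share over all genes. Of 15 other ligand genes, 6 were tested, and of 13 other receptors and co-receptors 11 were. Neither list had a member past the threshold in any of the 6 comparisons by limma. Over all genes 0.98% were called at 1 month, 2.31% at 2 months, 4.5% averaged over ages and 0% for the interaction. Between the ages it was 0.553% in dflox hearts and 0.378% in cardioGRMRdKO hearts. The median difference of the ligands was 0.06 at 1 month and -0.21 at 2 months, beside 0.00 and -0.10 over all genes. The receptors and co-receptors had medians of -0.19 and 0.14.

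Among genes that carry or respond to the FGF signal, single genes passed the test, beside 0.98% of all genes at 1 month, 2.31% at 2 months and 4.5% averaged over ages. Of 17 tested feedback and target genes, which include the Sprouty inhibitors and the ETS factors, 1 rose at 2 months and 0 fell, and the list medians were 0.07 at 1 month and 0.08 at 2 months. The one that rose was Etv5, a transcription factor induced by FGF signalling in many tissues. Its levels at 2 months were -3.54, -3.51 and -3.28 in cardioGRMRdKO hearts and -4.57, -4.72 and -4.79 in dflox hearts, with no overlap. The rise was 2.38-fold (log2 1.25, SE 0.18, adjusted p = 0.00638 by limma). The probe was detected in 2 of the 3 dflox hearts at 2 months, so this fold is set against a level partly near background. At 1 month the levels were -3.86, -4.02 and -3.50 in cardioGRMRdKO hearts and -4.37, -4.53 and -3.88 in dflox hearts, and the difference of 0.47 did not pass the test (adjusted p = 0.429). The second Etv5 probe gave 0.15 at 2 months with overlapping groups, so the rise rests on 1 probe, and normexp background correction gave 0.28. The call was lost in 3 of 25 alternative settings.

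Of 22 genes of the signal relay, 0 rose and 1 fell at each age (0.98% and 2.31% of all genes were called in either direction), with list medians of -0.01 and -0.06. The one that fell was Pik3r1, the regulatory subunit of phosphoinositide 3-kinase. Its levels at 1 month were -0.55, -0.64 and -0.79 in cardioGRMRdKO hearts and 0.02, 0.48 and 0.58 in dflox hearts. At 2 months they were -0.51, -0.67 and -0.21 in cardioGRMRdKO hearts and 0.67, 0.25 and 0.50 in dflox hearts. It fell 2.03-fold at 1 month (log2 -1.02, SE 0.18, adjusted p = 0.025) and 1.91-fold at 2 months (log2 -0.94, SE 0.18, adjusted p = 0.0233, both by limma). All 4 Pik3r1 probes were lower at both ages, with groups that overlapped only on A_51_P511236 at 2 months. The call at 1 month was lost in 11 of 25 alternative settings and that at 2 months in 8, with no change of direction. Averaged over ages, Ptpn11, a phosphatase needed downstream of FGF receptors, fell by 0.55 (adjusted p = 0.0316) and Akt1, a kinase downstream of phosphoinositide 3-kinase, fell by 0.31 (adjusted p = 0.0314). These calls were lost in 12 (Ptpn11) and 17 (Akt1) of 25 alternative settings.

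Among 24 tested genes of heparan sulfate proteoglycans and their enzymes, 1 rose at 2 months and 0 fell, where 2.31% of all genes were called, with list medians of -0.02 at 1 month and -0.07 at 2 months. The one that rose was Gpc4, a cell surface proteoglycan, by 0.50 (SE 0.11, adjusted p = 0.0484 by limma), and the call was lost in 22 of 25 alternative settings. Averaged over ages, Hs2st1, a heparan sulfate sulfotransferase, rose by 0.39 (adjusted p = 0.0487) and Ext1, a polymerase of the chain, fell by 0.39 (adjusted p = 0.0284). These calls were lost in 17 (Hs2st1) and 16 (Ext1) of 25 alternative settings.

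Because Fgf6 belongs to skeletal muscle, 28 genes of that lineage were looked at, of which 23 were tested. At 1 month 3 rose and 0 fell, at 2 months 4 rose and 0 fell, and averaged over ages 5 rose and 4 fell. Over all genes 0.98%, 2.31% and 4.5% were called in these 3 comparisons. Mybpc2, the myosin binding protein of fast skeletal muscle, rose 2.24-fold at 1 month (adjusted p = 0.00476) and 3.19-fold at 2 months (adjusted p = 0.0004). Acta1, the skeletal actin that the heart also makes, rose 3.55-fold at 2 months (adjusted p = 0.0178). Chrna1, a subunit of the muscle acetylcholine receptor, rose 4.83-fold at 2 months (adjusted p = 0.0159), and its 1-month dflox level was detected in 1 of 3 hearts. Among the genes lower on average were Tnni2, a fast skeletal troponin, which fell by 0.68 (adjusted p = 0.0229), and Myl1, a fast skeletal light chain, which fell by 0.89 (adjusted p = 0.0357, all by limma). Of 25 alternative settings, the call of Mybpc2 was lost in 2 at 1 month and 1 at 2 months, that of Acta1 in 7, that of Tnni2 in 9 and that of Myl1 in 13, and the call of Chrna1 was lost in 3 of 24. The median of the list was -0.02 at 1 month and -0.32 at 2 months, beside 0.00 and -0.10 over all genes.

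Fgf6 lies on chromosome 6 beside Fgf23, Tigar and Ccnd2 in the RefSeq order. Of 6 tested genes around it, 1 rose at each age (0.98% and 2.31% of all genes were called), and it was Ccnd2, a cyclin of the G1 phase. Its levels at 1 month were 4.84, 4.75 and 4.75 in cardioGRMRdKO hearts and 4.22, 4.06 and 3.94 in dflox hearts. At 2 months they were 4.77, 4.77 and 4.69 in cardioGRMRdKO hearts, against 3.94, 3.87 and 3.65 in dflox hearts. The rise was 1.63-fold at 1 month (log2 0.71, SE 0.11, adjusted p = 0.0132) and 1.90-fold at 2 months (log2 0.92, SE 0.11, adjusted p = 0.0019, both by limma), and all 3 of its probes separated the genotypes at both ages. The call was lost in 9 of 25 alternative settings at 1 month and in 1 at 2 months. Fgf23 and Tigar, which lie between Fgf6 and Ccnd2, were not called. Their differences at 2 months were -0.65 (95% interval -1.62 to 0.33) for Fgf23, a hormone of phosphate balance, and -0.10 (95% interval -0.33 to 0.14) for Tigar, a sugar phosphatase. Fgf23 differed by slide, with -3.81 to -3.36 on slide 3 and -5.03 to -4.33 on the other slides. Slide 3 holds 1 cardioGRMRdKO heart and 2 dflox hearts at 2 months. The part of the slide in the Fgf23 difference was not tested. With the airway marker mean as a covariate the 1-month differences of Ccnd2 and Pik3r1 were 0.59 and -0.78, with adjusted p of 0.22 and 0.375 by limma. The airway means of the genotypes did not overlap at 1 month, so that covariate and genotype cannot be told apart there.

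**Figure D5:**
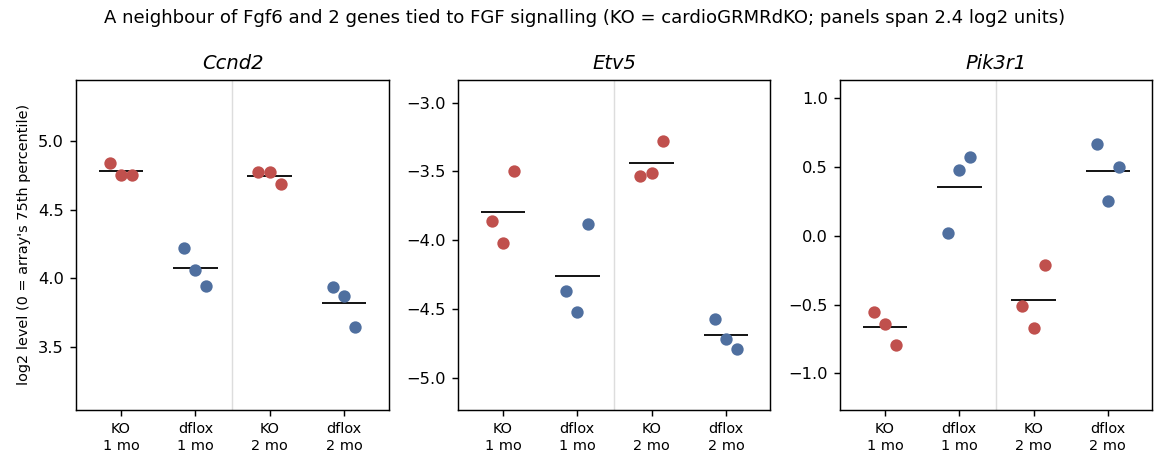
Log2 level (y axis, 0 is the array's 75th percentile) of Ccnd2, Etv5 and Pik3r1 in each heart, by group (x axis; KO stands for cardioGRMRdKO). Points are hearts and bars are means of 3. Ccnd2 is higher and Pik3r1 is lower in all cardioGRMRdKO hearts than in all dflox hearts of the same age, and Etv5 separates at 2 months.

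The genes whose levels ran most like those of Fgf6 over the 12 hearts were ranked by Pearson correlation among the 17781 other genes with full values. The 12 hearts fall into 2 genotypes, which carry most of the spread of Fgf6, so the ranking mainly finds genes that differ between genotypes. Among the highest were Igdcc4 (r = 0.979), Rgs7bp (0.978), Sergef (0.972), Lnx1 (0.971), Zfp518b (0.964), Gnb3 (0.959) and a probe without a gene name (0.958). The lowest were Whrn (-0.991), Cmss1 (-0.973), another probe without a gene name (-0.973) and Fbxo31 (-0.967). Rgs7bp, a membrane anchor for regulators of G protein signalling, read -1.61, -1.90 and -2.00 in cardioGRMRdKO hearts and -3.45, -3.12 and -2.76 in dflox hearts at 1 month. Gnb3, a G protein β subunit, read 0.40, 0.21 and 0.35 in cardioGRMRdKO hearts and -0.94, -0.71 and -0.88 in dflox hearts at 2 months. Whrn, a scaffold protein known from hair cells, ran opposite, with 1.66, 1.66 and 1.52 in cardioGRMRdKO hearts against 3.05, 3.35 and 3.04 in dflox hearts at 2 months.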

How the data were processed

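Total RNA (500 ng per heart, per the labels' protocols) was labelled with Cy3 and put on Agilent whole mouse genome arrays. The authors read them with Agilent Feature Extraction 9.5, per the submitters' processing notes (the file headers give 9.5.3.1). Their deposited processed signal is an intensity on a linear scale, with background already subtracted within the array, and the deposited value table holds the same intensity for 100% of spots, so no scaling between arrays had been applied. The deposited coordinates are on mm7, per the file headers.

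Control spots and outliers were dropped here, the deposited signals were turned into log2 values, the 75th percentile of an array's transcript spots was taken off, and repeated spots were averaged. A probe was kept if some group had it well above background in all 3 hearts (26979 of 41174), and the brightest kept probe represented its gene. Current symbols came from the RefSeq table of GRCm38.p6 (22951 probes through an accession, 3077 through an older symbol). The 4 group means of all 12 arrays were fitted with limma 3.58.1 in R 4.3.3, and a gene was called at a two-sided Benjamini-Hochberg adjusted p under 0.05 over 18258 genes. The fit was run on simulated data with independent noise and planted differences. That simulation held no slide, place or tissue effects, so it does not bear on them. Errors are SE from limma with 95% intervals.

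Named are all members, Nr3c1 and Nr3c2, up to 4 called genes per list and comparison, and the genes most and least like Fgf6. The members, the gene lists and the settings were chosen with earlier results of these data known. The alternatives were other normalization, background, filter and probe rules, terms for slide, place and replicate, array weights, and leaving out each heart. The number of hearts limits the precision. Some genes that the rule names are not reported here. Figures were drawn with matplotlib.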

Additional observations from a re-analysis of the deposited data

How the results depend on the processing

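The genotype difference of Fgf6 kept its sign in the 24 alternatives that could give one. That is no test, because Fgf6 was chosen on this difference. Its groups did not overlap at either age, so the 12 settings that leave out 1 heart could not change the sign. The difference was 0.41 and 0.75 at 1 and 2 months with normexp, and 2.27 at 1 month over the mean of both probes. It was 2.80 to 3.37 and 2.78 to 3.02 with each heart left out, and had no value where detection on all arrays was required. The other 8 members stayed uncalled in all 6 comparisons except for 1 member at 1 month under array weights (Fgf9) and, with each heart left out, 0 to 1 in the averaged comparison (Fgf16). Of their 48 uncalled differences, 21 changed sign in at least 1 setting. Atp2a1, lower on average, was at 0.26 over the mean of its probes.

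Counts of called genes, which set the background, moved more. At 1 month 179 became 108 with normexp, 91 with no filter, 9 with place, 803 with array weights and 36 with the airway covariate, and 83 to 232 with each heart left out. At 2 months 422 became 248 with normexp, 243 with no filter and 111 without slide 3, and 240 to 389 with each heart left out. Averaged over ages 821 became 488 with normexp, 518 with no filter, 257 with place, 234 without slide 3 and 1434 with array weights, and 508 to 802 with each heart left out. The age difference in cardioGRMRdKO hearts (69) became 34 with normexp, 13 with no filter, 16 with place, 209 with array weights and 7 with the airway covariate, and 4 (without replicate 3 of cardioGRMRdKO at 1 month) to 62 with a heart left out. That in dflox hearts (101) became 55 with normexp, 17 with no filter, 175 with detection on all arrays, 10 with slide as a fixed block, 28 with place, 26 without slide 3, 265 with array weights and 6 with the airway covariate, and 3 (without replicate 1 of dflox at 1 month) to 147 with a heart left out. The interaction (0) became 1 with place and 136 without slide 3. The causes were not tested.

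Hearts of the same replicate number were not treated as pairs in the main fit. Correlations of same-numbered deviations ran from -0.146 to 0.0347, apart from 0.551 for replicate 2 at 2 months. The arrays of that pair share slide 3, and both hearts had low airway marker means (-4.45 and -4.37). The replicate 3 pair at 1 month also shares a slide, slide 2, and had 0.0347. What lies behind the 0.551 was not tested. With the replicate block the counts were 136 at 1 month, 326 at 2 months, 691 averaged, 0 for the interaction, 31 for age in cardioGRMRdKO hearts and 75 for age in dflox hearts, and Pik3r1 lost its call at both ages.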
